A study of Mus musculus with 7 samples.

Results

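Stress-responsive genes of 2 families were followed through the single cells of the embryonic mouse nose: 4 heat-shock genes (Hspa1a, Hspa1b, Dnajb1 and Hsph1) and 6 immediate early genes (Fos, Fosb, Jun, Egr1, Atf3 and Klf2). These 10 were picked by name out of 30344 genes, after earlier results on the same cells were known, so that their own levels are given as a description and carry no test. The tissue was the whole nose at embryonic day 14.5, profiled with droplet-based 3′ single-cell RNA sequencing. The wild-type (WT) animals were of the CD1 IGS stock. The second line carried a Prokr2-driven Cre (ProKR2iCre) and a tdTomato reporter at the Rosa26 locus, with the alleles Prokr2em1(cre)Cfe, listed under B6;SJL, and Gt(ROSA)26Sortm14(CAG-tdTomato)Hze, listed under Cg. The labels give no treatment, and they describe 1 handling for the cells: enzymatic digestion with papain and collagenase A in the warm, freezing and thawing. A single Prokr2Cre nose gave both of its data sets, a sorted and an unsorted one, and the labels do not say which is which. They are called Prokr2Cre library 1 and 2 below, are not replicates and enter no test.

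Heat-shock genes encode chaperones that hold and refold damaged proteins; heat shock factor 1 switches them on within minutes of heat or other protein stress. Immediate early genes encode transcription factors that growth factors, calcium and stress switch on from ready-made regulators, with no new protein needed first. Both groups are known to be switched on when tissue is cut and digested into single cells, and both also have normal roles in living tissue. In these data a response in the animal and a response to the handling cannot be told apart, since no sample was prepared without dissociation.

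The promoters are shown because the known regulators of both families act through short elements close to the start of transcription. RefSeq promoter windows (GRCm38.p6) were found for 9 of the 10 members; none was found for Egr1. The 6 below are the 250 bases before the start of transcription, 5′ to 3′ on the gene's own strand. Capitals in Hspa1a and Hsph1 mark paired heat-shock half-sites (GAANNTTC or TTCNNGAA), those in Fos and Atf3 the core of a cyclic AMP response element (TGACG, or CGTCA on the other strand), and those in Atf3, Jun and Klf2 the outline of a MEF2 site (CTA and TAG, 4 bases apart).

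Hspa1a (chr17:34972157-34972406, minus strand): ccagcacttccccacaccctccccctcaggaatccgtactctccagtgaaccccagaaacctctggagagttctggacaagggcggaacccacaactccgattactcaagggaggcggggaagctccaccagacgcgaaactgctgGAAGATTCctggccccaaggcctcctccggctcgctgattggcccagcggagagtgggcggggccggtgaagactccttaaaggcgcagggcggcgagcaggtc
Hsph1 (chr5:149636337-149636586, minus strand): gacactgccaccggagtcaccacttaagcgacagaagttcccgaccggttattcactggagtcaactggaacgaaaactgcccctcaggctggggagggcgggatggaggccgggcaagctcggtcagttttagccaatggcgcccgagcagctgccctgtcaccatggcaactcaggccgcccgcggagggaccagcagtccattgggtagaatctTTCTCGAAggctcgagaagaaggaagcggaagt
Fos (chr12:85473640-85473889, plus strand): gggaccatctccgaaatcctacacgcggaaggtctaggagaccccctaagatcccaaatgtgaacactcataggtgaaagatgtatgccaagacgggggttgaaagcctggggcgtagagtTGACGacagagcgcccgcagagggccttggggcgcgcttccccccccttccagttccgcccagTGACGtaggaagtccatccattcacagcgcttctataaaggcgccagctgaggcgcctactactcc
Atf3 (chr1:191183334-191183583, minus strand): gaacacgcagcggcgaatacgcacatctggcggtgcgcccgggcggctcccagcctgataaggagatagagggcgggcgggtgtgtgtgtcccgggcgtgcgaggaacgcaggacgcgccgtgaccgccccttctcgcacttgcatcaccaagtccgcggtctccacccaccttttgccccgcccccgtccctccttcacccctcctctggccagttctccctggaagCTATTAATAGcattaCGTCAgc
Jun (chr4:95052223-95052472, minus strand): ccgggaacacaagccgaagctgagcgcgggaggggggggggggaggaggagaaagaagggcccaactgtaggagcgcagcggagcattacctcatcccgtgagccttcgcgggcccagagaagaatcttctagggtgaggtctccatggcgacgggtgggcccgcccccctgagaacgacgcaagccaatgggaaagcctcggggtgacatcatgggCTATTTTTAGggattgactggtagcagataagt
Klf2 (chr8:72318812-72319061, plus strand): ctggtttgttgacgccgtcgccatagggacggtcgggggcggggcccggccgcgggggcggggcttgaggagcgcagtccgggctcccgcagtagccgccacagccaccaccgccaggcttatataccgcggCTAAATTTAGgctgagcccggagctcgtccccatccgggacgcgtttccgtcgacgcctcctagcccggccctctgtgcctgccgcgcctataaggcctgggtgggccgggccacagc

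Hspa1a held GAANNTTC with its first base 104 bases before the start, and Hsph1 held TTCNNGAA 33 bases before it. The first letters occurred in 6.69% and the second in 7.17% of all 32851 windows of 250 bases, with both strands searched. In Hspa1b, the neighbouring copy of Hspa1a on chromosome 17, 3 of 250 bases differed from Hspa1a and the GAANNTTC stood at the same place. Jun held GAANNTTC as well, 128 bases before its start. Dnajb1 held neither form in this window. For Dnajb1 and Hsph1 there were 2 windows each, and the other was not described. TGACG stood 129 and 66 bases before the start of Fos, 60 before that of Fosb and, as CGTCA, 7 before that of Atf3. It was also present in Dnajb1 and Klf2, and 17.8% of all windows held it. The MEF2 outline lay 33 bases before the start of Jun, 118 before that of Klf2 and 22 before that of Atf3, against 3.20% of all windows. The CArG box, the element of serum response factor, was searched as well. It was found in none of the 9 members with a window, against 1.47% of all windows. The 2 heat-shock forms can overlap in a longer array of half-sites. A match of letters is a description of the window only.

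Of 7 libraries, WT replicate 3 shared 7386 of its cell barcodes with WT replicate 4 and differed from it by less than the sampling noise, so it was left out. No other pair shared more than 34. The libraries kept were WT 1, 2, 4 and 5 and the 2 Prokr2Cre libraries. Unique molecular identifiers (UMIs) count molecules. Cells in which 500 genes or more were seen, and of whose UMIs no more than 10% were mitochondrial, numbered 7790, 10496, 7029 and 3250 in the WT libraries and 1789 and 1111 in the Prokr2Cre libraries, with medians of 5127 to 13692 UMIs. Marker gates placed 20567 of 31465 cells in a class, 11028 of them mesenchyme-like (Twist1, Twist2 and Osr1 among the leading genes) and 2607 epithelial-like (Krt5, Krt14). A total of 9 classes held at least 10 cells in each of the 4 WT libraries. The smallest sums were 22 glia-like and 23 endothelial-like cells of WT 5, so values there carry wide counting intervals. Nothing in the labels ties a WT library to one animal, so the spread between libraries may be partly technical.

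Levels are given as CPM, the UMIs of a gene per 1000000 UMIs of all genes, summed over the cells of one class in one library. Hspa1a and Hspa1b, the 2 stress-inducible Hsp70 chaperones, differed widely between libraries. In mesenchyme-like cells Hspa1a stood at 259 CPM in WT 1, 32.4 in WT 2, 8.64 in WT 4 and 29.0 in WT 5, with 95% Poisson intervals, covering counting error only, of 253 to 265 and 7.34 to 10.1 at the extremes. The Prokr2Cre libraries had 7.12 and 15.1. WT 1 thus stood apart from the other 5 libraries, and WT 4 was close to the Prokr2Cre libraries. Hspa1b was likewise highest in WT 1, with 90.5, 15.1, 9.19 and 15.3 CPM in the WT libraries and 7.12 and 7.26 in the Prokr2Cre libraries.

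The 2 genes did not keep one ratio. Over all cells, Hspa1a UMIs outnumbered those of Hspa1b 2.65 times in WT 1, 2.16 times in WT 2 and 2.27 times in WT 5, but 0.992 times in WT 4. The Prokr2Cre libraries had 1.12 and 1.66. In epithelial-like cells of WT 4 the ratio fell to 0.66. The 2 transcripts share long identical stretches, but none of the 90-base windows of the last 500 bases of either occurred in the other, which is where 3′ libraries mostly read; how the counting treated reads that fit both genes is not given in the sources used here.

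Dnajb1, the Hsp40 partner that hands clients to Hsp70, stood at 124 CPM in WT 1 and at 43.9, 32.6 and 32.6 in WT 2, 4 and 5. The Prokr2Cre libraries, at 34.5 and 35.2, lay inside the range of the latter 3. Hsph1, an Hsp110 that resets Hsp70 by exchanging its nucleotide, moved little: 60.5, 36.7, 51.8 and 44.3 CPM in the WT libraries, 45.4 and 32.4 in the Prokr2Cre libraries. On the scale of CPM + 1, its highest and lowest WT values differed 1.63 times, close to the median of 1.64 times over 6685 genes at a mean of at least 20 CPM. For Hspa1a that range was 27.0 times on the same scale.

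**Figure D1:**
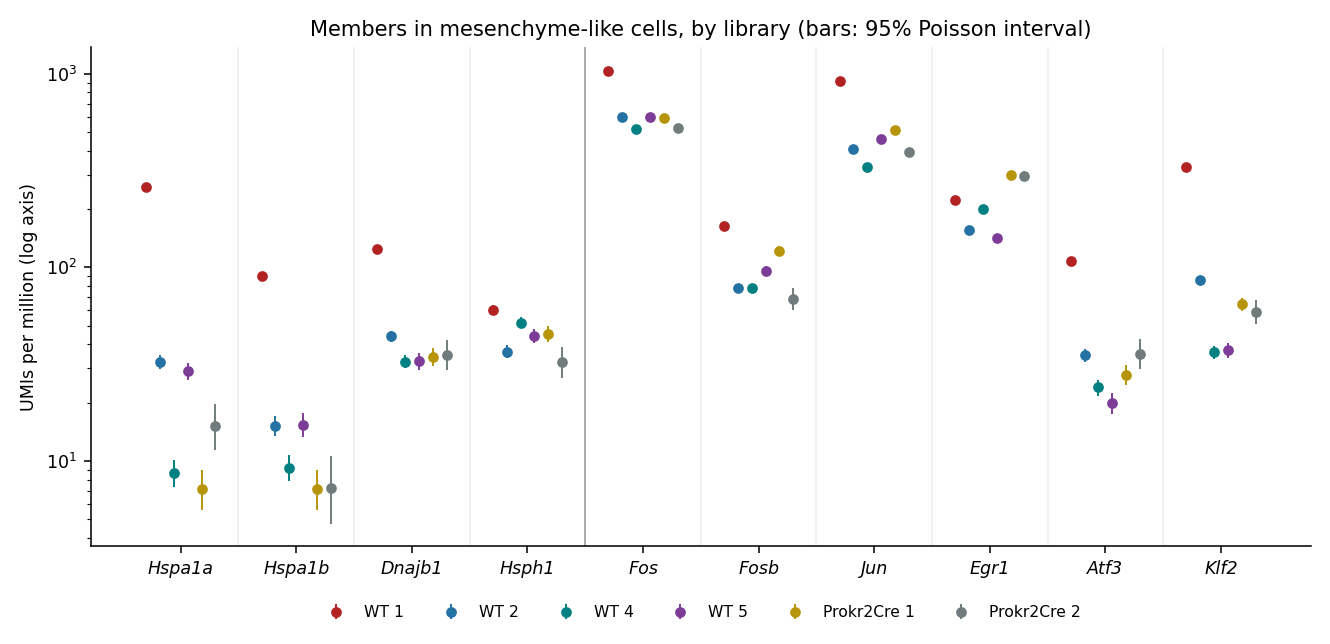
Level of each member in mesenchyme-like cells of each library, in CPM on a log axis; bars are 95% Poisson intervals from the counts, and the grey line parts heat-shock from immediate early genes. WT 1 has the highest WT value for all 10 members, at 259 CPM for Hspa1a against at most 32.4 in the other libraries.

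Among the immediate early members, Fos and its relative Fosb, which pair with Jun to form the AP-1 transcription factor, were also highest in WT 1, by smaller factors. Fos had 1031 CPM in mesenchyme-like cells of WT 1 and 601, 518 and 599 in WT 2, 4 and 5. The Prokr2Cre libraries, at 592 and 522, fell among these. Fosb had 163, 77.8, 77.9 and 95.5 CPM in the WT libraries and 122 and 68.7 in the Prokr2Cre ones, and Jun had 918, 407, 331 and 460, with 512 and 392. Without WT 1, Fos averaged 573 ± 46.9 CPM (SD, n = 3) and Jun 399 ± 64.8.

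Egr1, a zinc-finger factor that growth signals induce through ERK kinase and serum response factor, was the member that followed WT 1 least. It had 222, 156, 201 and 142 CPM in mesenchyme-like cells of WT 1, 2, 4 and 5, and both Prokr2Cre libraries were higher than all of these, at 300.1 and 295. Atf3, a stress-induced factor of the ATF/CREB family, had 107, 35.0, 23.9 and 19.9 CPM in the WT libraries and 27.8 and 35.7 in the Prokr2Cre ones. Klf2, a zinc-finger factor best known as a flow-induced gene of endothelium, had 329, 85.5, 36.4 and 37.1 CPM, and 64.4 and 58.9. For Atf3 and Klf2 as for Hspa1a, WT 1 alone lay far above the rest.

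All 10 members were highest in WT 1 among the WT libraries in mesenchyme-like cells, against 18.2% of all genes at a mean of at least 20 CPM. Their median range between WT libraries was 3.21 times on the scale of CPM + 1. The pattern reached most classes: WT 1 was the highest WT library in 9 of 9 classes for Jun, in 8 for Hspa1a, Hspa1b, Dnajb1, Atf3 and Klf2, in 7 for Fos and in 6 for Fosb. Hsph1 followed it in 5 classes and Egr1 in 3. WT 4 was lowest in 7 of 9 classes for Hspa1a, Hspa1b and Klf2. The excess of WT 1 was uneven over classes. Hspa1a in WT 1 exceeded the mean of the other WT libraries by 3.42 in mesenchyme-like cells, on the scale of log2(CPM + 1). In immune-like cells the excess was 0.44. For Klf2 it was 3.13 in both perivascular-like and glia-like cells and 0.71 in immune-like cells. The Klf2 values of WT 2, 4 and 5 rested on only 27, 8 and 16 UMIs in perivascular-like cells. In glia-like cells they rested on 4, 4 and 2.

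WT 1 was counted with Cell Ranger 6.0.1 and the other WT libraries with 7.0.0, per the file headers, and 2 centres made the libraries without the labels saying which made which. Handling, counting and animal cannot be told apart for WT 1. More than 10% of UMIs were mitochondrial in 1023 of 9433 barcodes of WT 1, 710 of 11363 of WT 2, 194 of 7408 of WT 4 and 2931 of 6722 of WT 5. The kept cells had medians of 2.60%, 2.65%, 2.77% and 4.04%, and the part of cell quality in the levels was not tested.

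**Figure D2:**
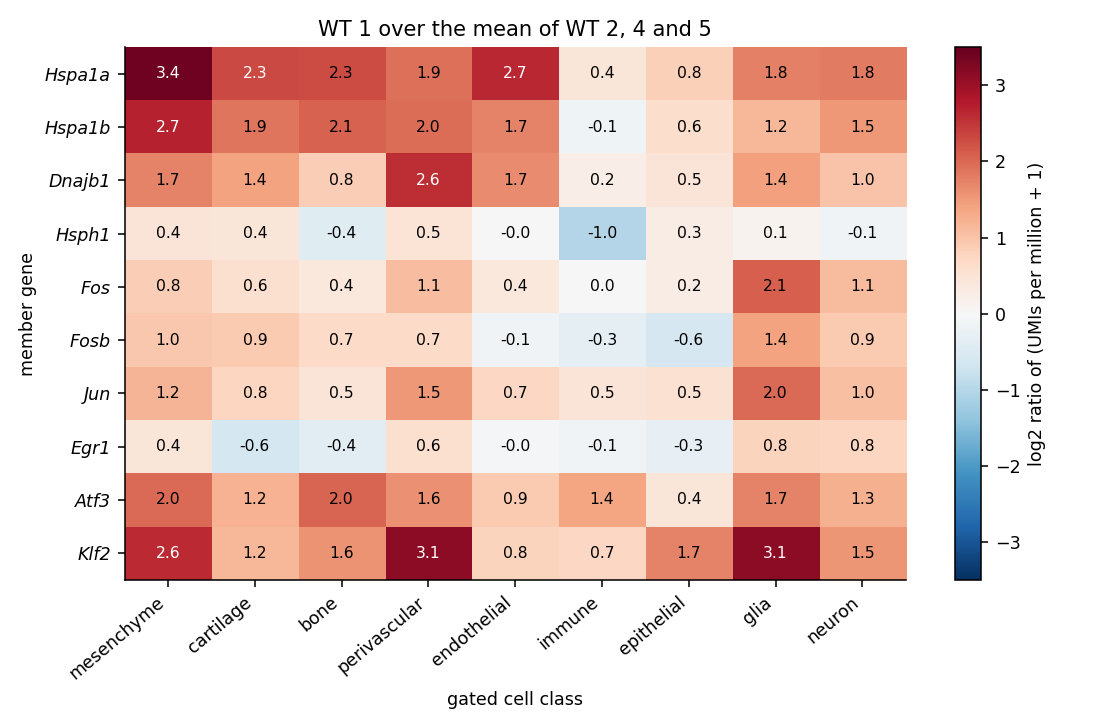
Each cell of the map gives, for one member and one gated class, log2 of (CPM + 1) in WT 1 minus log2 of the mean (CPM + 1) of WT 2, 4 and 5. Values for Hspa1a run from 0.44 to 3.42, whereas Egr1 and Hsph1 lie on both sides of 0.

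Across classes, Hspa1a and Hspa1b were highest on average rank in glia-like and immune-like cells, and Hspa1a was lowest in neuron-like cells. In glia-like cells, the ensheathing and Schwann cells along nasal nerves (Sox10 and Fabp7 among the leading genes), Hspa1a had 684, 297, 72.5 and 236 CPM in WT 1, 2, 4 and 5. In immune-like cells, led by C1qa and Mrc1 of macrophages with Cpa3 of mast cells, it had 383, 312, 147 and 388. In neuron-like cells it had 62.8, 27.1, 3.03 and 21.4, the last from 9 UMIs. Neuron-like cells were below mesenchyme-like cells of the same library in all 4 WT libraries, and the range over libraries of most classes overlapped.

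Hspa1b separated the classes better than its twin. Its 4 values in immune-like cells, 110, 127, 108 and 128 CPM, were nearly level over libraries and lay above all 4 values of mesenchyme-like cells. The glia-like values, 252, 103, 94.0 and 137 CPM, did so too. Perivascular-like and endothelial-like cells came next for both genes, overlapping their neighbours in the order. In endothelial-like cells of Prokr2Cre library 1, from 41 cells, Hspa1a had only 1.93 CPM.

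Hsph1 was higher in glia-like cells (89.3, 88.3, 75.2 and 84.6 CPM) and in endothelial-like cells (78.4, 62.5, 79.3 and 96.0 CPM) than in any mesenchyme-like value. The glia-like values had the smallest SD relative to the mean of any heat-shock member in any of the 9 classes, 84.3 ± 6.43 CPM (SD, n = 4). Its highest single value was 203 CPM in immune-like cells of WT 5. Dnajb1 was highest on average rank in epithelial-like cells (133, 98.6, 72.0 and 120 CPM), above mesenchyme-like cells of the same library in 4 of 4, though the 2 ranges overlapped.

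Fos, Egr1 and Atf3 peaked in epithelium. Epithelial-like cells were the highest of the 9 classes for each of the 3 genes in all 4 WT libraries. Egr1 had 344, 346, 588 and 318 CPM there, and its lowest epithelial value was above every value of the other 8 classes. Atf3 had 653, 480, 590 and 379 CPM in epithelial-like cells, against 93.3, 18.2, 26.8 and 37.3 in glia-like and 107, 35.0, 23.9 and 19.9 in mesenchyme-like cells. Only the immune-like values, 620, 284, 177 and 253 CPM, overlapped the epithelial ones. Fos was nearly level over libraries in epithelial-like cells, at 1175, 997, 1002 and 971 CPM (1036 ± 93.7, SD, n = 4).

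Klf2 was high in endothelial-like and cartilage-like cells and low in epithelial-like and glia-like cells. It reached 742, 794, 354 and 151 CPM in endothelial-like cells and 647, 317, 271 and 283 CPM in cartilage-like cells, whose 4 values did not overlap those of immune-like cells, the next in order. In epithelial-like cells it had 47.2, 21.1, 7.98 and 11.4 CPM and in glia-like cells 69.0, 5.19, 10.7 and 4.98, the last from 2 UMIs. Cartilage exceeded mesenchyme within each WT library.

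Fosb had 219, 166, 83.9 and 161 CPM in bone-like cells and 221, 98.4, 136 and 115 CPM in cartilage-like cells, and both exceeded mesenchyme within each library. Epithelial-like cells, at 84.3, 121, 125 and 137 CPM, overlapped both. On average rank Fosb was lowest in neuron-like cells, at 38.7, 18.3, 25.7 and 16.6 CPM, though glia-like cells of WT 4 had 16.1 CPM. Neuron-like cells were also low in Fos, with 395, 173, 219 and 154 CPM, below all 4 mesenchyme-like values. Jun was flatter than Fos and Fosb: its mean over WT libraries ran from 410 CPM in bone-like to 837 CPM in epithelial-like cells, and neuron-like cells had 872, 347, 537 and 383 CPM, overlapping mesenchyme.

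**Figure D3:**
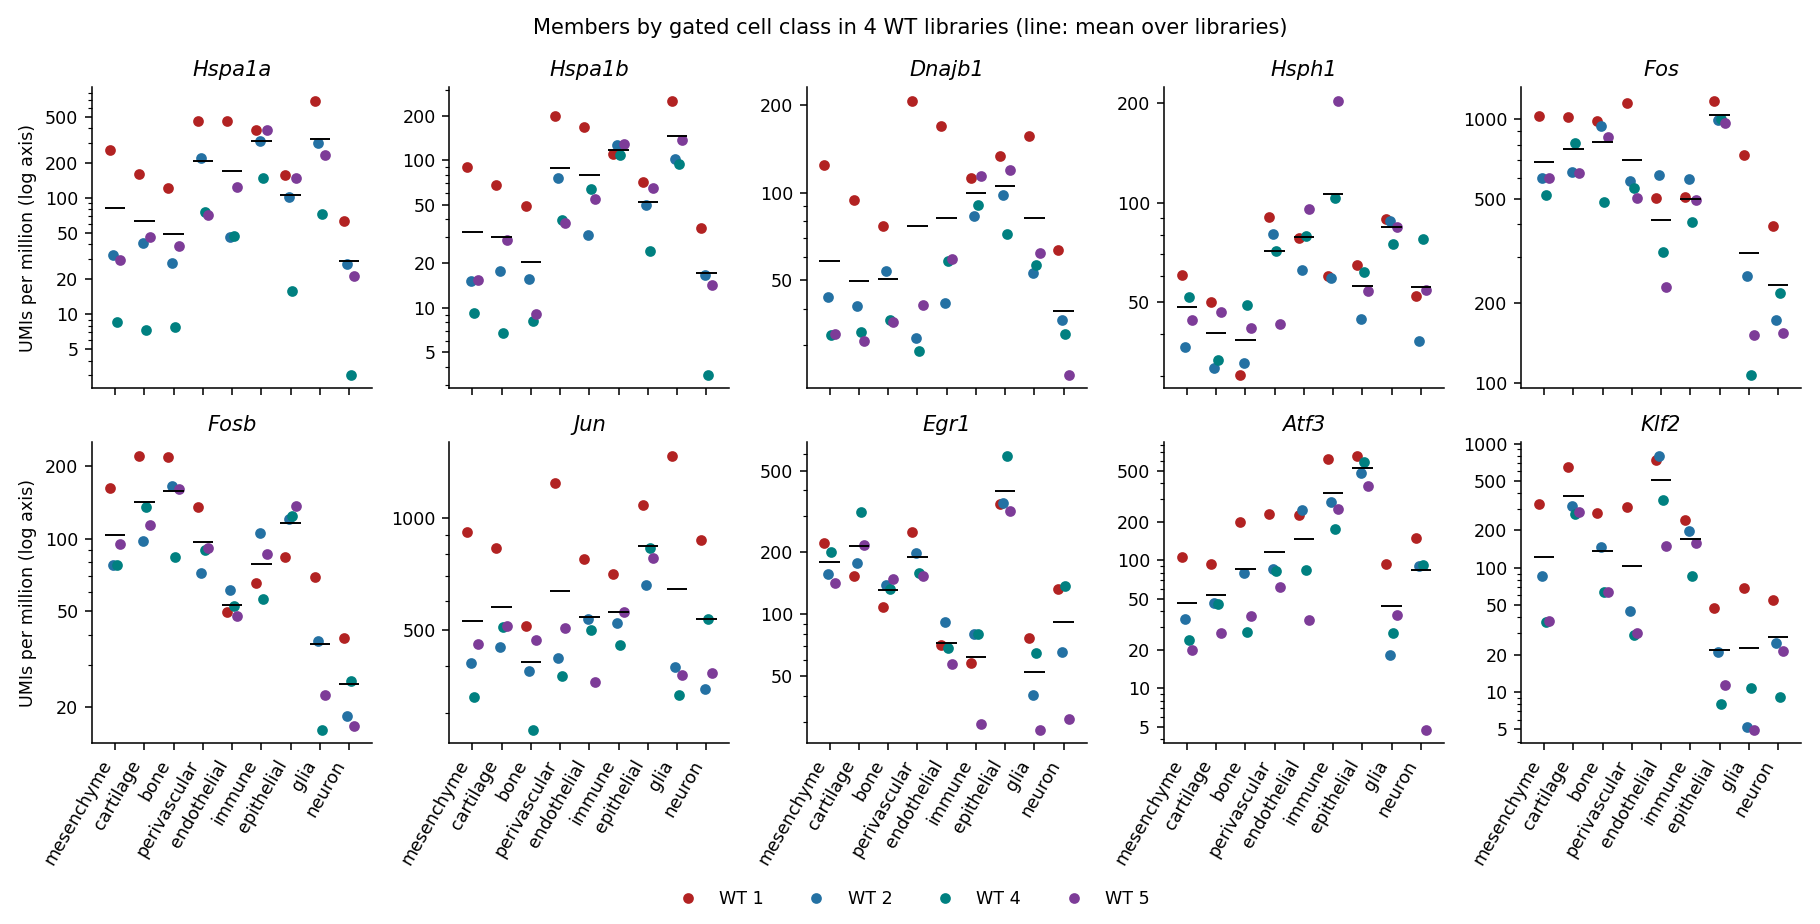
Level of each member in 9 gated classes, in CPM on a log axis; points are the 4 WT libraries and black lines their means. Egr1 and Atf3 peak in epithelial-like cells, Klf2 in endothelial-like and cartilage-like cells, and Hspa1a in glia-like and immune-like cells, with WT 1 on top in most classes.

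Counted over the list, 0 to 2 of the 10 members lay wholly above mesenchyme in a class over the 4 WT libraries, and 0 to 3 wholly below. In epithelial-like cells 2 of 10 lay wholly above (Egr1 and Atf3), against 11.5% of genes at a mean of at least 20 CPM, and none wholly below, against 11.6%. In neuron-like cells 3 lay wholly below (Fos, Fosb and Egr1; 12.4% of genes) and none above (18.4%). In glia-like cells 2 lay above (Hspa1b and Hsph1; 8.44%) and 2 below (Fosb and Egr1; 8.47%). In endothelial-like cells Hsph1 lay above (11.6%) and Fosb and Egr1 below (13.4%), and in immune-like cells Hspa1b and Atf3 lay above (16.7%) and Egr1 below (19.7%). None separated in cartilage-like cells (6.85% of genes above, 8.47% below), bone-like cells (4.38% and 6.9%) or perivascular-like cells (5.52% and 2.8%).

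Compared within each library, more members kept one direction. In epithelial-like cells 6 of 10 exceeded mesenchyme in every WT library (Dnajb1, Hsph1, Fos, Jun, Egr1 and Atf3; 34.2% of genes) and Klf2 was below in each (32.2%). In endothelial-like cells 5 were above in each (Hspa1a, Hspa1b, Hsph1, Atf3 and Klf2; 23.8%), and in glia-like cells all 4 heat-shock members were above (23.3%) while Fos, Fosb, Egr1 and Klf2 were below (26.4%). In neuron-like cells 5 were below in each library and none above (30.8% and 37.0% of genes). In cartilage-like cells Fosb and Klf2 were above in each (23.2%) and none below (39.8%), and in bone-like cells Fosb and Atf3 were above (17.0%) and Hsph1 below (40.4%). In perivascular-like cells 4 were above (18.6%) and Klf2 below (19.6%), in immune-like cells 3 above (27.6%) and 2 below (43.6%), and in endothelial-like cells Fosb and Egr1 were below (36.0%). The remaining immediate early members, Jun and Atf3, kept no one direction in glia-like cells.

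The other genes of the 2 families, 34 heat-shock companions (mostly chaperones, co-chaperones and their factors, with a few others such as the G-protein regulator Rgs2 and the autophagy adaptor Sqstm1) and 52 immediate early companions, were tested with edgeR's quasi-likelihood test on sums per class and library, with the library as a block and Benjamini-Hochberg adjustment over all genes. Immediate early companions split by class. In neuron-like cells 30 of 48 tested were lower than in mesenchyme-like cells and 6 higher, against 27.3% and 26.6% of all genes; in glia-like cells 28 of 48 were lower and 5 higher, against 16.5% and 13.1%. Their median log2 fold changes were -0.84 and -0.77, against -0.04 and -0.07 over all genes tested.

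Among those lower in neuron-like cells were Socs3, a brake on cytokine signalling (log2 fold change -2.38 ± 0.21 SE, adjusted p = 7.16e-06 by edgeR), and Fosl2, a further Fos relative (-2.34 ± 0.33, adjusted p = 0.000179). The DNA-damage and differentiation gene Gadd45a went the other way at 187 against 7.85 CPM (4.42 ± 0.29, adjusted p = 7.89e-07). In glia-like cells the orphan nuclear receptor Nr4a3 (-3.83 ± 0.56) and the kinase Sik1 (-2.59 ± 0.31) fell most among these. Each of these genes changed the same way in 4 of 4 libraries.

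In epithelial-like cells 25 of 51 immediate early companions were higher and 9 lower, against 25.6% and 27.6% of all genes (34 higher and 8 lower without WT 1). Arc, a synaptic immediate early gene, had 12.5 CPM against 0.236 (5.63 ± 0.36, adjusted p = 3.68e-05 by edgeR), and Fosl1 (3.67 ± 0.57), the ERK phosphatase Dusp5 (3.03 ± 0.40) and the Egr1 relatives Egr3 (2.52 ± 0.32) and Egr2 (2.38 ± 0.35) rose as well. Socs3 fell (-1.70 ± 0.08). All of these held in 4 of 4 libraries.

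In immune-like cells 24 of 49 were higher and 9 lower (23.4% and 29.7% of all genes; 5 lower without WT 1), led by the MAP kinase phosphatase Dusp2 (4.69 ± 0.34), Cebpb (2.70 ± 0.17) and Klf10 (2.20 ± 0.26), with the RNA-destabilising Zfp36 next (2.03 ± 0.17). In endothelial-like cells 16 of 49 were higher and 7 lower (18.5% and 23.8%; 20 and 2 without WT 1). Dusp2 stood out there too, at 87.3 CPM against 1.15 (6.19 ± 0.30, adjusted p = 5.59e-12 by edgeR), beside Dusp6 (2.41 ± 0.20) and Plk2 (2.04 ± 0.14). In cartilage-like cells, where Klf2 and Fosb exceeded mesenchyme, 10 of 48 were higher and 15 lower (21.3% and 20.4%). Ccn2, a matricellular growth factor of cartilage, led the rise (2.79 ± 0.32) and Egr3 the fall (-1.92 ± 0.37).

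Of the heat-shock companions, 13 of 34 were higher in epithelial-like cells and 7 were lower, against 25.6% and 27.6% of all genes. In immune-like cells 11 of 33 were higher and 8 lower (23.4% and 29.7% of all genes), and in neuron-like cells 11 of 34 and 9 (26.6% and 27.3%). In glia-like cells 10 of 34 were higher and 2 lower (13.1% and 16.5%), in endothelial-like cells 8 and 3 (18.5% and 23.8%) and in cartilage-like cells 5 and 4 (21.3% and 20.4%). Some genes of small heat-shock proteins, which hold unfolded proteins without ATP, were among those that rose most in glia-like, epithelial-like and endothelial-like cells. They were not tested as a group. Cryab had 378 CPM in glia-like against 6.92 in mesenchyme-like cells (5.98 ± 0.34, adjusted p = 9.51e-10 by edgeR). Hspb8 (4.67 ± 0.32), Hspb1 (3.99 ± 0.39) and Cryab (3.57 ± 0.31) rose in epithelial-like cells, and Hspb1 (3.16 ± 0.22) in endothelial-like cells. Hspa4l, a relative of Hsph1, rose most among the companions in neuron-like cells (3.67 ± 0.17) and rose in immune-like cells as well (2.26 ± 0.39). Without WT 1 the counts higher and lower were 7 and 7 in cartilage-like cells, 11 and 5 in immune-like cells and 12 and 1 in glia-like cells.

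The constitutive Hsp70 gene Hspa8 was higher in glia-like (0.62 ± 0.09), endothelial-like (0.73 ± 0.13) and immune-like cells (1.00 ± 0.13). Serpinh1, the collagen chaperone, fell in neuron-like (-2.42 ± 0.14), immune-like (-2.45 ± 0.16) and epithelial-like cells (-1.86 ± 0.11) and rose in cartilage-like cells (1.18 ± 0.08).

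A stress arm with its own sensors, the unfolded protein response of the endoplasmic reticulum, was counted beside them. Of 13 of its genes measured, 8 of 11 tested were higher in cartilage-like cells (21.3% of all genes) and 7 of 11 in immune-like cells (23.4%), none lower in either (20.4% and 29.7%). Pdia4 (1.09 ± 0.07) and the chaperone Hspa5 (0.97 ± 0.06) rose in cartilage-like cells and Sdf2l1 (2.46 ± 0.14) in immune-like cells. In epithelial-like cells, where Fos, Egr1 and Atf3 peaked, 2 of 12 were higher and 4 lower (25.6% and 27.6% of all genes; 4 and 4 without WT 1). Of 18 upstream factors, 6 were higher and 2 lower in endothelial-like cells (18.5% and 23.8% of all genes), led by the serum response cofactor Elk3 (2.97 ± 0.18); in epithelial-like cells 2 were higher and 7 lower (25.6% and 27.6%; 4 and 5 without WT 1), Elk3 among the latter (-1.12 ± 0.16).

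Single cells showed how the members go together. Mesenchyme-like cells were thinned to 3000 UMIs each, which left out 45, 328, 198 and 26 shallower cells of WT 1, 2, 4 and 5, and Pearson's r was taken over cells on ln(UMIs + 1) within each library. The 6 immediate early members were correlated in every WT library, with a mean over their pairs of 0.23, 0.27, 0.29 and 0.17 in WT 1, 2, 4 and 5 and of 0.36 and 0.29 in the Prokr2Cre libraries. The pair Fos and Jun had the highest mean, 0.41 over the WT libraries (0.35 to 0.48), and the pair Fos and Egr1 had 0.35. The 4 heat-shock members reached a mean of 0.23 in WT 1 but 0.10, 0.04 and 0.05 in WT 2, 4 and 5. These are cells of one library, which share their handling and free RNA, and in counts this sparse a weak r is not a finding.

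Hspa1a and Hspa1b were the closest heat-shock pair. In WT 1 their r was 0.51, and 334 of 2632 cells held both, against 144 if the 2 had been detected independently. In WT 2, 4 and 5 r was 0.18, 0.19 and 0.18, with 30, 11 and 11 cells holding both, against 6.67, 1.18 and 3.44 if independent. More cells than under independence thus held both in each of the 4 WT libraries. In the Prokr2Cre libraries r was 0.34 and -0.02, with 4 and 0 cells holding both, against 0.38 and 0.13 if independent. Between the families r averaged 0.13 in WT 1 and 0.06, 0.02 and 0.00 in WT 2, 4 and 5. In WT 1 it was 0.28 for Hspa1a with Fos and 0.03 for Hspa1a with Klf2, although WT 1 had the highest level of all 3 genes among the WT libraries.

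**Figure D4:**
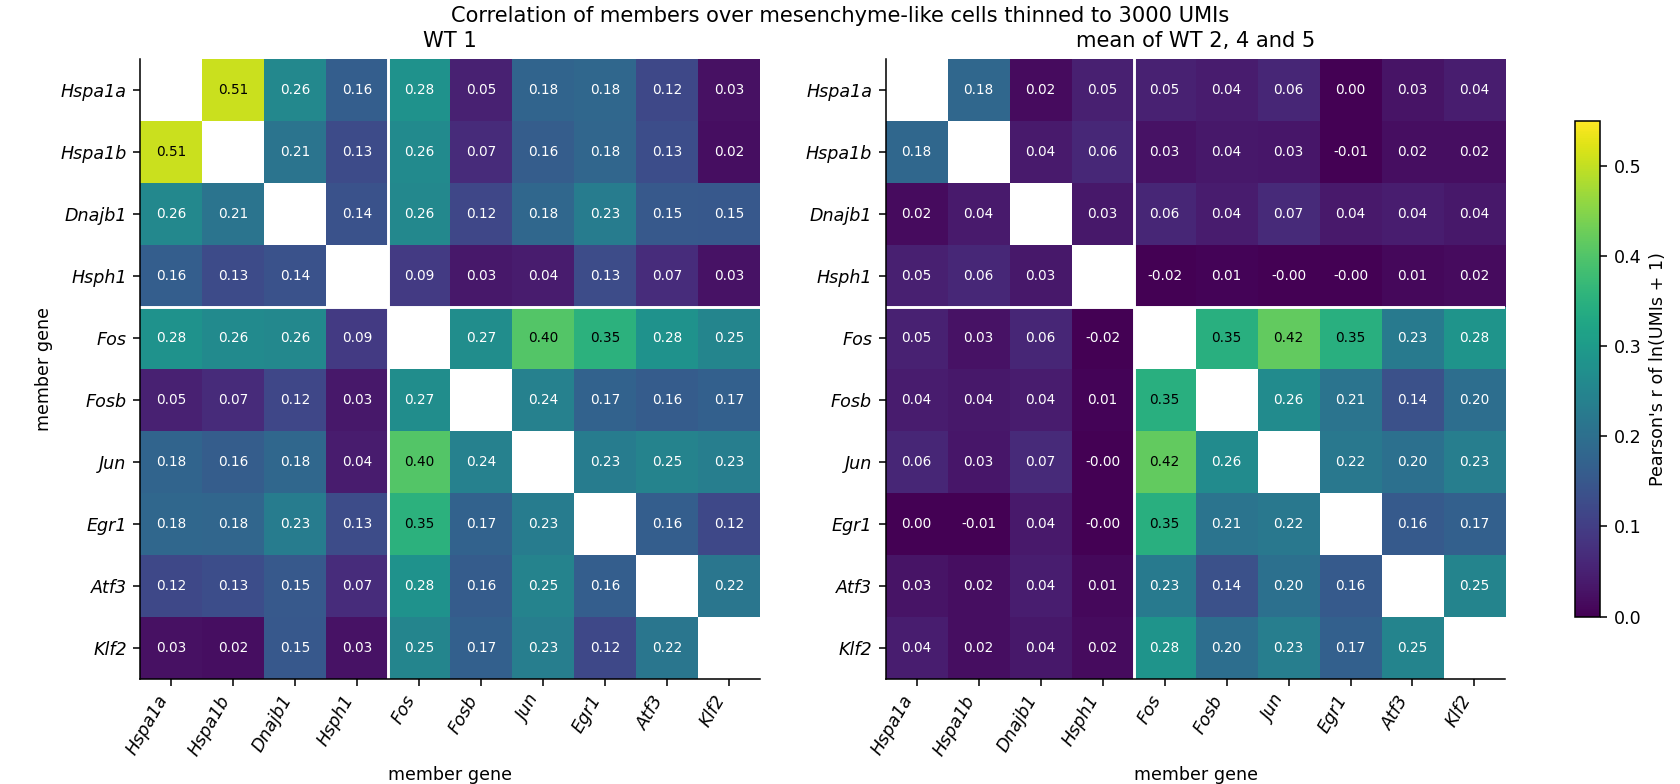
Pearson's r between members over mesenchyme-like cells thinned to 3000 UMIs, on ln(UMIs + 1), in WT 1 (left) and as the mean of WT 2, 4 and 5 (right); white lines part the families. The immediate early block is alike in both maps, with Fos and Jun at about 0.4, whereas Hspa1a with Hspa1b is 0.51 on the left and 0.18 on the right.

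Expression was spread unevenly over cells. At 3000 UMIs, 30.3% of mesenchyme-like cells of WT 1 held an Hspa1a UMI, against 5.80%, 1.91% and 7.64% in WT 2, 4 and 5 (41.8%, 9.61%, 4.08% and 16.3% unthinned). No class is known to lack Hspa1a; neuron-like cells, the lowest, had 9.65%, 3.18% and 0.541% in WT 1, 2 and 4. The part that free RNA plays in these shares was not tested. In WT 1 the 10% of mesenchyme-like cells with the most Hspa1a UMIs held 63.7% of them, and one cell held 20. Fos was broader: 74.2%, 54.8%, 49.1% and 59.6% of cells held it, and the top 10% held 41.8% to 48.8% of its UMIs.

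To ask what else differs, the 20% of mesenchyme-like cells richest in the immediate early members were compared with the 20% poorest, within each library and at 3000 UMIs a cell. The rich cells had a mean of 10.8 to 23.2 member UMIs in the WT libraries and the poor cells 0 to 1.16. Of 43 immediate early companions tested, 34 were higher in the rich cells and none lower, against 6.64% and 5.23% of all genes, and 31 were higher without WT 1. Over all genes 1216 were called (11.9%), against 531 without WT 2 and 716 without WT 4. Socs3 (159 against 13.9 CPM, log2 fold change 3.53 ± 0.22 SE), Junb (390 against 41.3 CPM, 3.43 ± 0.24), Zfp36 (3.37 ± 0.17), Nr4a3 (3.19 ± 0.28) and Csrnp1 (2.99 ± 0.36) led, all in 4 of 4 libraries, with adjusted p from 1.00e-07 to 0.000104 by edgeR.

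Among genes at a mean of at least 20 CPM, the 10 with the largest rise also held Dusp1, Btg2, Ppp1r15a and Nr4a1, all feedback or stress-response genes, and 3 of another kind: the tight-junction gene Cldn11 (2.88 ± 0.36) and the transcription factor genes Foxp2 (2.46 ± 0.19) and Mecom (2.46 ± 0.30). The genes that fell most were the agouti gene a (-2.32 ± 0.24), the Wnt antagonist Dkk1 (-2.08 ± 0.28), Apcdd1 (-2.03 ± 0.20), the Wnt effector Lef1 (39.2 against 142 CPM) and the mitotic gene Pimreg (-1.96 ± 0.20). The part of mesenchymal subtypes in the comparison was not tested. Summed cartilage markers were higher in the rich cells of all 4 WT libraries (165 to 217 against 94.4 to 112 CPM, 3 of 6 tested called higher) and summed neuron markers lower (104 to 158 against 162 to 345 CPM, 2 of 3 called lower); endothelial markers were higher in 4 of 4 (12.9 to 20.9 against 6.74 to 18.4 CPM; 1 of the 9 was tested and it was not called). Of 8 mesenchyme markers 2 were called higher and 2 lower, and granulocyte and erythroid markers were at 0.

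Of 31 heat-shock companions tested, Cryab (1.47 ± 0.35) and Hspb1 (1.03 ± 0.20) were among 5 called higher (6.64% of all genes), and the chaperonin subunit Cct2 (-0.30 ± 0.09) was the 1 called lower (5.23%). Without WT 1 none of the 31 was called. The heat-shock members themselves, which did not choose the cells, differed by library. Hspa1a stood at 590 against 106 CPM in WT 1, 62.5 against 14.4 in WT 2, 11.6 against 2.45 in WT 4 (19 against 4 UMIs) and 36.7 against 20.7 in WT 5 (23 against 13 UMIs). Hspa1b stood at 215 against 35.5, 26.5 against 11.1, 11.6 against 6.74 and 15.9 against 14.4 CPM in the same order, the last of these resting on 10 against 9 UMIs. Dnajb1 stood at 313 against 52.6, 67.4 against 26.0, 45.3 against 27.6 and 43.1 against 22.3 CPM. Hspa1a and Dnajb1 were thus higher in the rich cells of each WT library, and Hspa1b in those of WT 1 and 2. In WT 4 Hspa1b was higher on few UMIs, since all thinned mesenchyme-like cells there held only 68. No difference was readable from so few UMIs in WT 5. Hsph1 did not keep one direction, with 90.6 against 36.8, 42.6 against 28.7, 50.9 against 48.4 and 25.5 against 44.7 CPM.

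The same comparison for the heat-shock members called few genes. In WT 1 the rich cells held 3 to 27 member UMIs. In WT 2, 4 and 5 a single UMI sufficed, since most cells held none. Among the thinned cells of WT 1, Hspa1a gave the most member UMIs, with 2284 against 457 for Hsph1. In WT 4 and 5 Hsph1 gave the most, with 399 and 134 against 60 and 106 for Hspa1a. Different members thus weighed most in picking the rich cells of different libraries. Of 10304 genes, 16 were higher (0.155%) and 3 lower (0.0291%) by edgeR, against 748 at an unadjusted p below 0.05. DESeq2 called 0 higher and 1 lower, so none of the rises named next was called by it. The growth-arrest genes Gadd45b (0.68 ± 0.13, adjusted p = 0.0178 by edgeR) and Gadd45g (0.62 ± 0.11, adjusted p = 0.0047) and the EGF receptor inhibitor Errfi1 (0.66 ± 0.13, adjusted p = 0.0191) rose. They were among 4 of 44 immediate early companions called, against 1 of 30 heat-shock companions. Without WT 1 none of either list was called. The calls over all genes numbered 19 with all 4 libraries (0.184%), 4 without WT 2 and 50 without WT 5. Markers of other classes moved with the rich cells, none called by edgeR: summed cartilage markers were higher in 4 of 4 WT libraries (116 to 167 against 104 to 125 CPM), as were endothelial markers (12.8 to 24.1 against 7.97 to 17.1 CPM). Summed neuron markers (122 to 236 against 155 to 259 CPM) and bone markers (97.0 to 196 against 115 to 228 CPM) were lower in 4 of 4, and their part in the result was not tested. The immediate early members did not choose these cells. All 6 were higher in the rich cells of WT 1 and of WT 2, and 5 of 6 in WT 4, where Egr1 was at 184 against 201 CPM. In WT 5 5 of 6 were lower and Atf3 was equal at 20.7 CPM. Over all thinned mesenchyme-like cells of WT 5, the r of the immediate early members with Hspa1a, Hspa1b and Dnajb1 lay between -0.03 and 0.07. With Hsph1 it was negative for all 6, from -0.07 for Fos to -0.01 for Fosb. Fos was at 2063 against 790 CPM in WT 1, at 755 against 533 in WT 2 and at 539 against 510 in WT 4, but at 581 against 684 in WT 5. In the Prokr2Cre libraries it was at 722 against 444 and at 869 against 464.

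**Figure D5:**
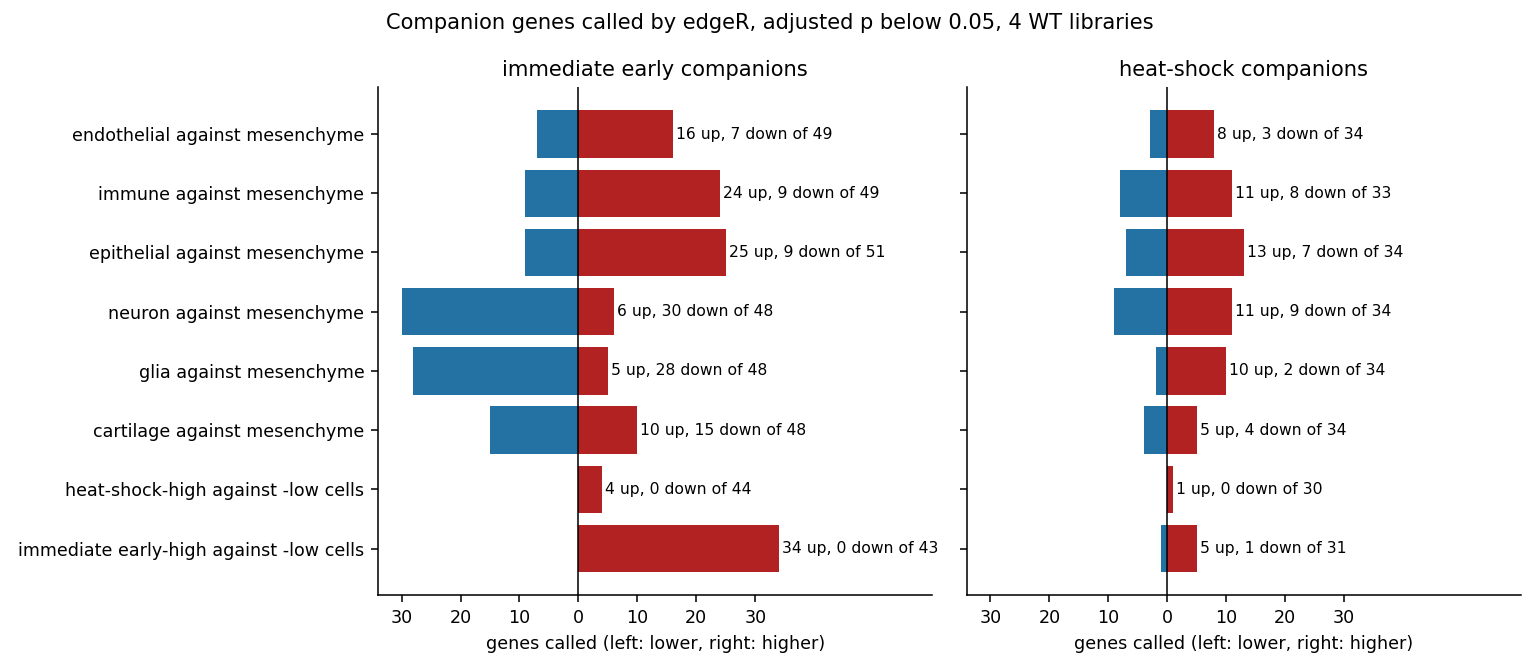
Number of immediate early (left) and heat-shock (right) companion genes called higher (red) or lower (blue) by edgeR in each comparison over 4 WT libraries. Immediate early companions are mostly lower in neuron-like and glia-like cells, and 34 of 43 are higher in immediate early-rich mesenchyme-like cells.

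Among 6814 genes, several non-members shared the members' pattern over 34 sums of one class in one WT library, each of at least 30 cells; several are companions already listed. Closest to the mean of the heat-shock members were Sat1, a polyamine-breaking enzyme (r = 0.81), Nmt1 (0.80), Cebpd (0.78), Clic1 (0.77) and Ndufs8 (0.77). Closest to the mean of the immediate early members were Junb (0.83), Zfp36 (0.80), Ier3 (0.76), Nr4a1 (0.72) and Mvb12a (0.72). Without WT 1, over 24 sums, Sat1 had 0.87 and Zfp36 0.93, while Cebpd had 0.66 and Mvb12a 0.61. Sums of one library share its handling and sums of one class its cells, so these r are a description.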

How the data were processed

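Raw UMI counts per gene and cell were deposited by the authors as 10x matrices. Per the file headers they came from Cell Ranger 6.0.1 (WT 1), 7.0.0 (WT 2 to 5) and 6.1.2 (Prokr2Cre libraries). The submitters' processing notes name Cell Ranger 4, Seurat 4.3.0 and mm10, and whether intronic reads were counted is not given in the sources used here. The members and all gene lists were chosen with earlier results of these data known.

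Filtering left 31465 cells of 6 libraries, each with 500 detected genes or more and a mitochondrial share of UMIs of 10% or less, over 30344 genes. WT replicate 3 was left out, because it shared 7386 barcodes with WT replicate 4. A cell was mesenchyme-like when every other class scored below 0.3 SD and at least 3 mesenchyme markers were detected. This rule was applied first. A cell entered any other class when at least 3 of that class's markers were detected and its marker score led by 0.5 SD. That lead was taken with the mesenchyme score left out. The other 34.6% stayed ungated, no member was a marker, and no doublet caller was run. Counts were summed per class and library where there were at least 10 cells (30 for the genes alike in pattern).

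Sums were tested with edgeR 4.0.16 (quasi-likelihood, TMM scaling, false discovery rate 0.05, R 4.3.3) over all genes in the 4 WT libraries, with the library as a block. Both sums of a pair come from the same library, which is where the pairing comes from. Gate markers stayed out of the class fits, and the members that picked the cells out of the rich against poor fits. The members themselves carry no test. Named genes were the largest changes past the threshold in each list, or in all genes for rich against poor cells, with 1 direction in every library. DESeq2 1.42.0, other filters, gates and depths and each library left out were tried. On simulated data edgeR recovered 200 of 200 genes changed 4-fold. It made 4 false calls among 13156 genes for endothelial-like cells and 3 among 10301 genes for heat-shock-rich cells. Smaller changes, such as the rises named for heat-shock-rich cells, were not simulated, so their recovery is not known.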

Additional observations from a re-analysis of the deposited data

Results flagged for a closer look

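A single library lay far from the other 3 in 19 of 90 groups of 4 WT values, each group being 1 member in 1 class. There the gap to the nearest library, as a share of the range, was above Dixon's 95% critical value. Chance puts about 1 in 20 groups above it, and it served only to pick the groups listed, not as a test of the members. WT 1 was the high library in 18 of the 19. In mesenchyme-like cells WT 1 had 258.9 CPM for Hspa1a (others 8.637 to 32.4), 90.53 CPM for Hspa1b (others 9.187 to 15.34), 124.3 CPM for Dnajb1 (others 32.57 to 43.89), 1031 CPM for Fos (others 518.4 to 600.6) and 329.4 CPM for Klf2 (others 36.36 to 85.48). In cartilage-like cells WT 1 had 94.1 CPM for Dnajb1 (others 31.0 to 40.86), 829.3 CPM for Jun (others 450.4 to 512.0) and 647.0 CPM for Klf2 (others 270.6 to 316.8). In epithelial-like cells WT 1 had 1175 CPM for Fos (others 971.0 to 1002). In glia-like cells WT 1 had 157.1 CPM for Dnajb1 (others 53.22 to 62.21), 1463 CPM for Jun (others 335.6 to 398.5) and 68.95 CPM for Klf2 (others 4.977 to 10.74). In endothelial-like cells WT 1 had 169.2 CPM for Dnajb1 (others 41.99 to 59.41). In perivascular-like cells WT 1 had 206.7 CPM for Dnajb1 (others 28.69 to 41.21), 1158 CPM for Fos (others 503.9 to 585.9), 1239 CPM for Jun (others 376.6 to 507.6), 232.1 CPM for Atf3 (others 61.81 to 85.37) and 311.9 CPM for Klf2 (others 28.69 to 45.19). The exception was Egr1 in epithelial-like cells, where WT 4 had 587.7 CPM and the others 317.6 to 346.3. The groups share libraries and are not independent of each other. The part that the library's preparation or its Cell Ranger version plays was not tested.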

How the results depend on the processing

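The fold change of no named gene changed sign under the alternatives run. The balance of calls did: cartilage-like cells had 2911 higher and 2798 lower, but 2343 and 2448 with DESeq2, 2556 and 3627 with no filter on low counts, 1958 and 2179 without WT 2, 2253 and 2523 without WT 5, and 2629 and 2784 with stricter cell limits. Epithelial-like cells had 3668 and 3961, but 3910 and 3844 without WT 1 and 1968 and 1917 without the block, and neuron-like cells had 3635 and 3731, but 2382 and 1993 without the block. Without WT 1 the mean levels in mesenchyme-like cells fell from 82.2 to 23.4 CPM for Hspa1a, from 32.5 to 13.2 for Hspa1b, from 58.3 to 36.4 for Dnajb1, from 46.5 to 26.3 for Atf3 and from 122 to 53.0 for Klf2; these moves lie within an SD that WT 1 itself widens. Of the alternative values, 67 counts of called genes stayed within 1.5 times, 15 fell and 2 rose, and 264 values of named genes lost their call against 1957 that did not. Without the replicate block (the pairing by library), calls fell to 3151 in endothelial-like, 3885 in epithelial-like, 4375 in neuron-like, 1727 in glia-like and 1420 in cartilage-like cells, to 19 for immediate early-rich cells (8 of 43 companions) and to 0 for heat-shock-rich cells. Leaving out the 5% of cells with the most UMIs gave 3059 calls in endothelial-like and 10 in heat-shock-rich cells. For heat-shock-rich cells DESeq2 called 1 (0 higher, 1 lower), no filter on low counts gave 74, thinning to 2000 UMIs gave 8, and leaving out 1 library gave 4 to 50. For immediate early-rich cells DESeq2 called 506, and leaving out 1 library gave 531 to 1194. The cause of these changes was not tested. Few cells limit the small classes of WT 5, and low counts limit Hspa1a and Hspa1b in single cells outside WT 1.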

Other observations

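The 2 rarest classes described here were too few for a comparison. In muscle-like cells Hspa1a had 69.8 CPM in WT 1 (102 cells) and 0 UMIs in WT 2 (19 cells) and in Prokr2Cre library 2 (23 cells), where the 95% Poisson intervals, covering counting error only, allow up to 17.1 and 7.34 CPM. Fos had 255, 347 and 97.6 CPM in the same libraries and Jun 380, 393 and 145. In erythroid-like cells Hspa1a had 151 CPM in WT 1 (19 cells) and 0 UMIs in WT 5 (17 cells), with up to 12.6 CPM allowed, while Fos had 331 and 233 CPM. Jun averaged 538 ± 221 CPM (SD, n = 4) in ungated cells and 563 ± 213 CPM in all cells.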
